A study of Homo sapiens with 4 samples.

Results

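The LIM homeobox genes examined here are LHX1, LHX2, LHX3, LHX4, LHX5, LHX6, LHX8, LHX9, LMX1A and LMX1B. They were chosen by family and not by a measured value, but with earlier results of these data known. Each was given a window of 20 kb to either side of its start on hg19. These 10 windows held 35 of the 66093 deposited EZH2 peaks, 18 of the 31077 peaks in H3.1-WT cells and 17 of the 35016 peaks in H3.1-K27M cells. The study mapped EZH2 by CUT&RUN, in which an antibody in permeabilised cells guides a nuclease that releases the bound DNA for sequencing. HEK293 is an established line from human embryonic kidney, and the cells were transduced with lentivirus, selected with G418 and induced with doxycycline, and genotyped in the labels as H3.1-WT or H3.1-K27M. The 2 genotypes thus share transduction, selection and induction. The K27M mutation replaces lysine 27 of histone H3 with methionine. Each genotype had 1 EZH2 library and 1 negative control library made with the anti-rabbit HRP secondary antibody (HRP library), and each peak list set EZH2 against the HRP library of its own genotype. In the H3.1-K27M group the sample titles read H31, and the mutation was taken from the genotype label. No source used here says whether the cells were a clone or a pool.

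There were thus 4 libraries and 1 per group, so differences between genotypes have no replicate check and were not tested. The lists hold no read counts, so the depth of the libraries is unknown, and the number, width and strength of peaks all depend on it. Fold enrichment is the authors' value per peak over the caller's background, and −log10 q is the authors' significance per peak. Both describe peaks within a list. A peak is called strong here at a −log10 q of at least 5. In that sense 2107 H3.1-WT peaks and 654 H3.1-K27M peaks were strong, and the shorter strong list of H3.1-K27M applies to every comparison of strength that follows.

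LIM homeobox genes encode transcription factors with a pair of zinc-binding LIM domains ahead of a DNA-binding homeodomain. The LIM domains bind the cofactor LDB1, which joins these factors into larger complexes, and LIM-only proteins compete for the same cofactor. The family sets the identity of neurons in the brain and spinal cord and patterns pituitary, eye, limb, gonad and kidney. EZH2 is the catalytic subunit of Polycomb repressive complex 2 (PRC2), which methylates lysine 27 of histone H3, and CpG-rich promoters of silent developmental regulators are typical sites of PRC2 in mammals. The 10 genes fall into 5 paralog pairs: LHX1 with LHX5, LHX2 with LHX9, LHX3 with LHX4, LHX6 with LHX8, and LMX1A with LMX1B.

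Promoter sequence was available in RefSeq (GRCh38.p14) for 8 of the 10 genes, with 15 starts in all. Of these starts, 13 were CpG-rich, defined as a GC content of at least 50% and a CpG observed over expected of at least 0.6, and the same held for 46.9% of the 35116 promoters in the table. Each promoter runs from 250 bases before to 50 bases after the start. The median GC content was 67% at these starts and 58.7% over all promoters, and the median number of CpG dinucleotides was 30 and 14. The promoters below, read 5′ to 3′ on the transcribed strand with CpG dinucleotides in capitals, are those of the genes with the lowest ratios of covered bases between H3.1-K27M and H3.1-WT (LHX4, LMX1B and LHX2), of LHX3, with wide peaks in both lists, and both starts of LHX8, the gene with the lowest GC content.
LHX3, first start: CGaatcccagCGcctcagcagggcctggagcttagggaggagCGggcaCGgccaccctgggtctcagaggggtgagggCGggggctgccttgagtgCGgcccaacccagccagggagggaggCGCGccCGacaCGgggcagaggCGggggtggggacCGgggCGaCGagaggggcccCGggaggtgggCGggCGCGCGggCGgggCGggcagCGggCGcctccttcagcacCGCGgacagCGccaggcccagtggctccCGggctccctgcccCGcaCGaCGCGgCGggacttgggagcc
LHX2: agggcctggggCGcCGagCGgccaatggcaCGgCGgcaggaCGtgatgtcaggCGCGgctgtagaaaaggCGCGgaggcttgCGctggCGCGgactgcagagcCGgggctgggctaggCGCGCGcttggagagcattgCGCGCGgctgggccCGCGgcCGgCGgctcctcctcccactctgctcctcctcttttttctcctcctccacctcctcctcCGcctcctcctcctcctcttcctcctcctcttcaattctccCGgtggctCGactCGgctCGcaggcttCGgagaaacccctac
LHX4: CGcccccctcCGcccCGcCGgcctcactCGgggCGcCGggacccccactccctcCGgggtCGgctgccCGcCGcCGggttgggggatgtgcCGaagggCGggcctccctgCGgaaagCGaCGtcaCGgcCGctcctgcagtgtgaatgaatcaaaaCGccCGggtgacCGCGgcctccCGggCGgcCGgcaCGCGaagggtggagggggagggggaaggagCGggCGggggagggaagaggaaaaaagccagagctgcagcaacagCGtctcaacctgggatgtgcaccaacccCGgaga
LMX1B: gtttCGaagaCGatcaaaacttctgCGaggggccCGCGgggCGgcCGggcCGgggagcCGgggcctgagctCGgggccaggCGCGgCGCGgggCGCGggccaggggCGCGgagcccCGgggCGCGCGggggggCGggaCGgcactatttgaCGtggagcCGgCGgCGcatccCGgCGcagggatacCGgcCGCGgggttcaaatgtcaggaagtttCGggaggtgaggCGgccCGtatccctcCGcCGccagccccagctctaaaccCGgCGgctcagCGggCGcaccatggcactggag
LHX8, first start: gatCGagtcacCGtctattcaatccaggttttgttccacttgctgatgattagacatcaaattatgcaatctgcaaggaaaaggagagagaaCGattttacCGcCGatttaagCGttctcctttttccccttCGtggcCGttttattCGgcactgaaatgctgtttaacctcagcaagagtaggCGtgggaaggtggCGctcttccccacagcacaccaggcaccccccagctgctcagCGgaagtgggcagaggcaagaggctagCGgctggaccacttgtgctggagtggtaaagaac
LHX8, second start: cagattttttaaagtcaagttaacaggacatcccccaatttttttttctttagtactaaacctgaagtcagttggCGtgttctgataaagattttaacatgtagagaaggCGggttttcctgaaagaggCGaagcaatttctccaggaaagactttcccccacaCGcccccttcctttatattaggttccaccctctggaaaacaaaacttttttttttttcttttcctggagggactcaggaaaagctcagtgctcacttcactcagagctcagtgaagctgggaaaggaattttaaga

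On GRCh38.p14 these lie at chr9:136205079-136205378 on the minus strand for LHX3, and on the plus strand at chr9:124011518-124011817 for LHX2, chr1:180230014-180230313 for LHX4, chr9:126613678-126613977 for LMX1B, and chr1:75128184-75128483 and chr1:75134138-75134437 for LHX8. These positions are on another build than the peaks and are not set against them, and which of several starts corresponds to the hg19 start was not settled. The LMX1B promoter held 42 CpG dinucleotides, the most among those printed, at a CpG observed over expected of 1.01. The LHX2, LHX4 and LHX3 promoters held 30, 32 and 32. The first LHX8 start held 13 and the second 4, with GC contents of 51.3% and 40.7%. The second LHX8 start and the third LHX6 start, at a CpG observed over expected of 0.323 and 0.294, were the 2 that were not CpG-rich. The LHX3, LHX4 and LMX1B promoters, picked for print by their peaks, were all CpG-rich. LHX1 and LHX5 had no sequence, and a link between CpG content and the extent of peaks was not tested.

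**Figure D1:**
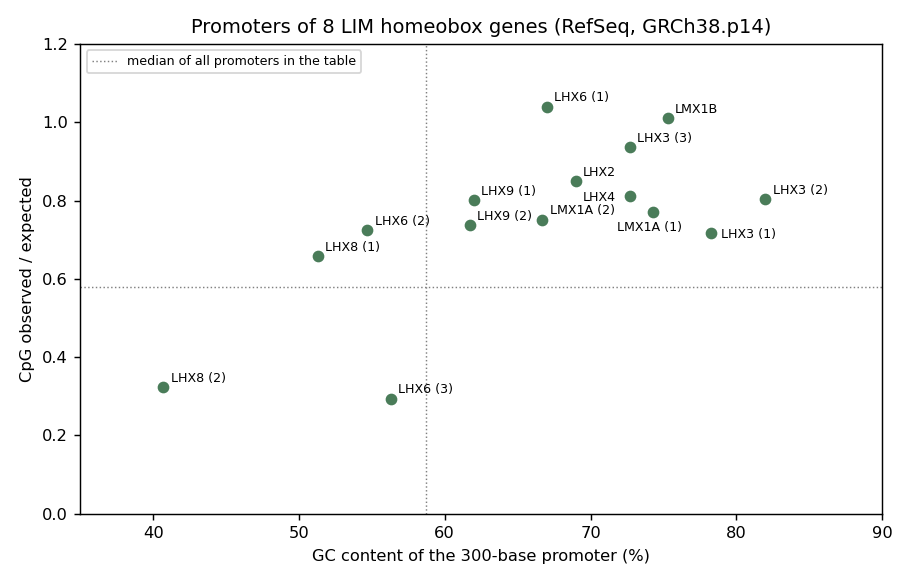
GC content (x axis, %) and CpG observed over expected (y axis) of the 15 RefSeq promoters of 8 LIM homeobox genes, 1 point per start, numbered where a gene has several, with dotted lines at the medians of all 35116 promoters. The points lie mostly in the upper right, and LHX8 (2) and LHX6 (3) lie lowest.

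In H3.1-WT cells, each of the 10 LIM homeobox genes had an EZH2 peak in its window, and so did each in H3.1-K27M cells. For comparison, 29.0% of 72014 autosomal tiles of 40 kb held an H3.1-WT peak and 23.0% held an H3.1-K27M peak. The tiles cover the autosomes evenly and are not centred on gene starts, so they describe the genome and not other promoters. A strong H3.1-WT peak lay at 6 of the 10 genes, namely LHX2, LHX3, LHX5, LHX6, LHX8 and LHX9, against 2.91% of tiles. A strong H3.1-K27M peak lay at 2 of the 10, LHX3 and LHX5, against 0.925% of tiles. The difference in number depends on the minimum: with a −log10 q of at least 10, LHX3 and LHX5 alone qualified in each list, 2 of 10 genes in both, against 1.09% and 0.225% of tiles. The genes nearest the limit were LHX9 and LHX2 on the inside, with −log10 q values of 5.02 and 5.21 in H3.1-WT, and LMX1A and LMX1B on the outside, with 4.30 and 4.12.

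**Figure D2:**
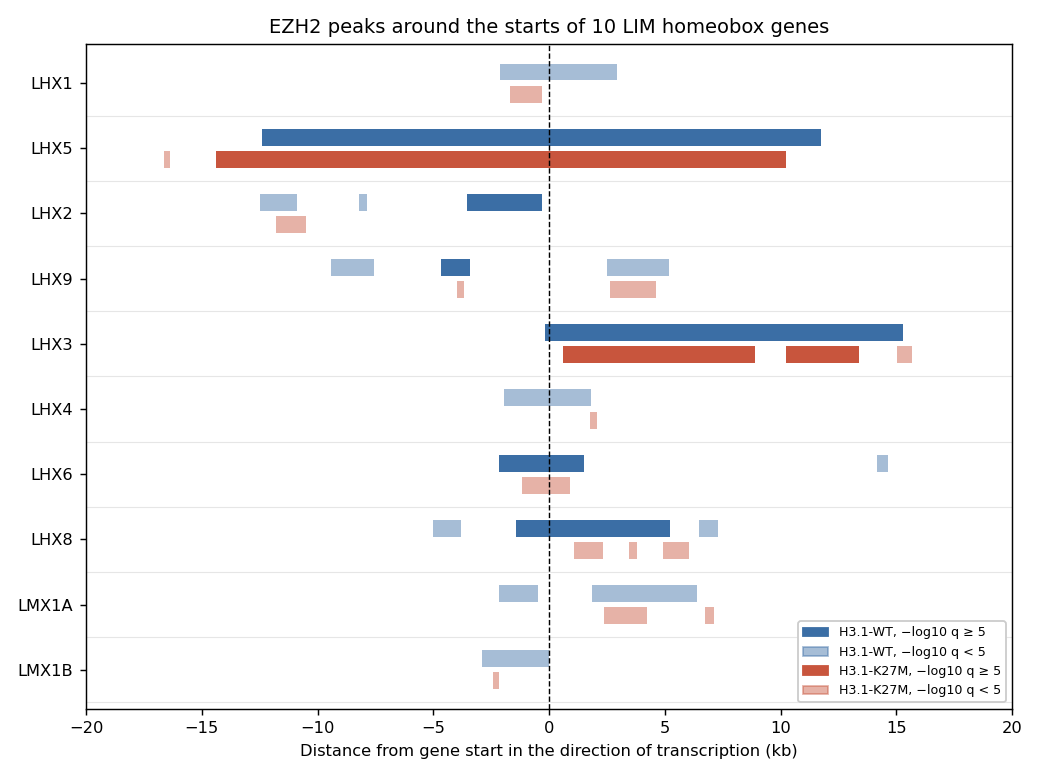
EZH2 peaks (bars, to scale) around the starts of the 10 genes, with distance from the start in the direction of transcription in kb on the x axis and 1 row per gene with H3.1-WT above H3.1-K27M. Dark bars mark strong peaks (−log10 q from 5), and the long bars at LHX5 and LHX3 occur in both lists while the other genes have short, pale bars in H3.1-K27M.

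Peaks covered 81420 bases of the 10 windows in H3.1-WT and 49626 bases in H3.1-K27M, a ratio of 0.61. The 2 lists shared 45106 bases, which is 55.4% of the H3.1-WT coverage and 90.9% of the H3.1-K27M coverage. The H3.1-K27M coverage thus lay mostly inside the H3.1-WT coverage. Covered bases were fewer in H3.1-K27M at 9 of the 10 genes, with LHX5 the exception. The same direction held in 76.5% of the 20892 tiles with an H3.1-WT peak and in 75.7% of the 2096 tiles with a strong one, so the count of 9 is near the background and is not a result about these genes. The ratio per gene ran from 0.084 at LHX4 to 1.03 at LHX5, with a median of 0.334. Among the 6 genes with a strong H3.1-WT peak the median ratio was 0.45, beside 0.62 in tiles with such a peak, and among the other 4 it was 0.184, beside 0.196 in 8733 tiles whose highest H3.1-WT −log10 q was from 2 to 5.

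**Figure D3:**
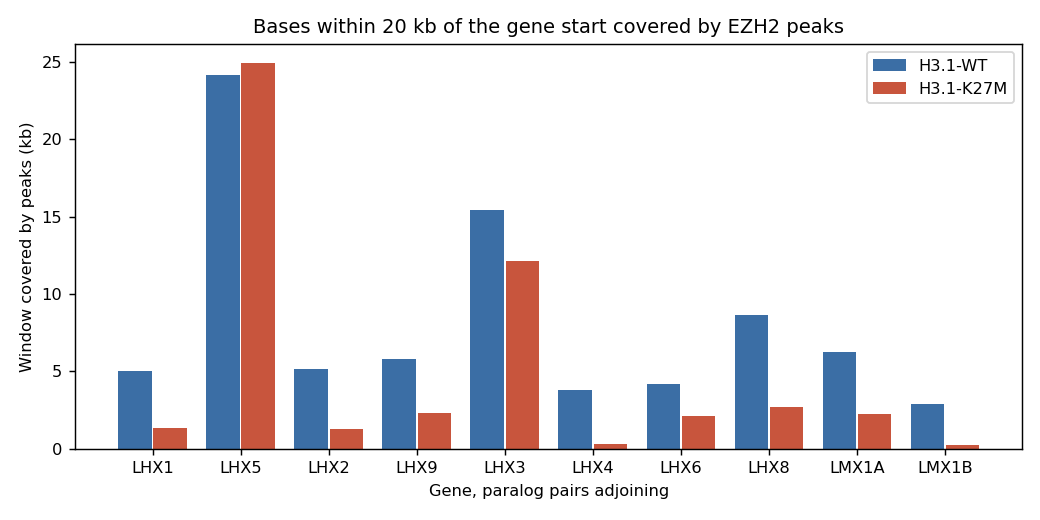
Bases within 20 kb of each gene start covered by EZH2 peaks (y axis, kb, from 0), 1 bar per gene and peak list, with no error bars because each bar is 1 peak list. LHX5 and LHX3 have the tallest bars in both lists, and the bars of the other 8 genes reach at most 8666 bases in H3.1-WT and 2668 bases in H3.1-K27M.

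LHX5, a factor of the forebrain, hippocampus and spinal interneurons, lies at 12q24.13 and held the widest peak of the family in both lists. In H3.1-WT a single peak at chr12:113898240-113922407 spanned 24168 bases, from 12.4 kb upstream to 11.8 kb downstream of the start, with a fold enrichment of 9.65 and a −log10 q of 20.25. It was the second widest of the 31077 H3.1-WT peaks. In H3.1-K27M the peak at chr12:113899748-113924393 spanned 24646 bases, from 14.4 kb upstream to 10.3 kb downstream, with a fold enrichment of 8.12 and a −log10 q of 13.44. It was the fifth widest of the 35016 H3.1-K27M peaks. The 2 peaks shared 22660 bases, which is 93.8% of the H3.1-WT peak and 91.9% of the H3.1-K27M peak, so the domain occupied nearly the same stretch in both lists with its edges moved by a few kb. A further H3.1-K27M peak of 266 bases lay 16.4 kb upstream, with a −log10 q of 2.46 and no H3.1-WT counterpart. LHX5 covered 4.67 times the median of the other 9 genes in H3.1-WT.

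LHX1, the paralog of LHX5 that acts in the head organiser, kidney and spinal interneurons, lies at 17q12 and had far shorter peaks. The H3.1-WT peak at chr17:35291883-35296920 spanned 5038 bases across the start, from 2.1 kb upstream to 2.9 kb downstream, with a fold enrichment of 3.93 and a −log10 q of 3.18. The H3.1-K27M peak at chr17:35292320-35293688 spanned 1369 bases, from 1.7 to 0.3 kb before the given start and all inside the H3.1-WT peak, with a fold enrichment of 3.26 and a −log10 q of 1.78. The share of the H3.1-WT peak covered in H3.1-K27M was thus 27.2%, beside 93.8% at LHX5. LHX5 covered 4.80 times as many bases as LHX1 in H3.1-WT and 18.2 times as many in H3.1-K27M. With peaks of a −log10 q of at least 2, LHX1 had 0 covered bases in H3.1-K27M, so that ratio rests on its 1 peak below this minimum. The start of AATF, a neighbouring gene, lies 12.2 kb from that of LHX1 in RefSeq, outside these peaks.

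LHX3, which specifies pituitary cells and motor neurons, lies at 9q34.3 and held the strongest peak of the family in each list. The H3.1-WT peak at chr9:139081706-139097159 spanned 15454 bases, from 0.2 kb upstream to 15.3 kb downstream of the start, with a fold enrichment of 9.88 and a −log10 q of 21.83. Nearly all of it lay on the transcribed side of the start. In H3.1-K27M the same stretch was divided into 3 peaks. The strongest, chr9:139088107-139096416, spanned 8310 bases from 0.6 to 8.9 kb downstream, with a fold enrichment of 10.5 and a −log10 q of 21.61. The next, chr9:139083624-139086771, spanned 3148 bases from 10.2 to 13.4 kb downstream, with a fold enrichment of 5.92 and a −log10 q of 7.88. The last had 663 bases and a −log10 q of 1.64 and lay at the far edge, around 15.0 kb. Together they covered 76.0% of the H3.1-WT peak and left its edge nearest the given start uncovered. RefSeq lists 3 LHX3 starts, and the others were not set against the peaks, so H3.1-K27M peaks may lie at those. By fold enrichment the strongest peak ranked 11 in the H3.1-K27M list, and the H3.1-WT peak ranked 190 in its own list. The lists differ in length and in their range of values, so these ranks show no change.

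LHX4, which shares the pituitary and motor neuron roles of LHX3, lies at 1q25.2 and stood at the other end of the family. The H3.1-WT peak at chr1:180197033-180200805 spanned 3773 bases around the start, from 2.0 kb upstream to 1.8 kb downstream, with a fold enrichment of 4.00 and a −log10 q of 2.66. The H3.1-K27M peak at chr1:180200755-180201071 had 317 bases, a fold enrichment of 3.22 and a −log10 q of 1.42. Only 51 bases at the downstream edge were shared, or 1.35% of the H3.1-WT peak. LHX4 had the lowest highest −log10 q of the 10 genes in both lists. LHX3 covered 4.10 times as many bases as LHX4 in H3.1-WT and 38.2 times as many in H3.1-K27M. The latter ratio rests on 1 LHX4 peak near the calling limit. With peaks of a −log10 q of at least 2, LHX4 had 0 covered bases in H3.1-K27M.

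LHX5 and LHX3 together made up 48.7% and 74.6% of the family's covered bases in H3.1-WT and H3.1-K27M. Without them the other 8 genes covered 41798 and 12593 bases in H3.1-WT and H3.1-K27M, a ratio of 0.301, and 25.6% of their H3.1-WT coverage was shared with H3.1-K27M. The 16 H3.1-WT peaks of these 8 genes had a median width of 2260 bases and fold enrichments from 2.98 to 6.04. Their 12 H3.1-K27M peaks had a median width of 1170 bases and fold enrichments from 3.22 to 4.16. Of these, 2 of the H3.1-WT peaks and 5 of the H3.1-K27M peaks had a −log10 q under 2, where the lowest values in the lists were 1.01 and 1.00. The coverage shared by the 2 lists over the 10 genes thus came mostly from 2 loci.

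**Figure D4:**
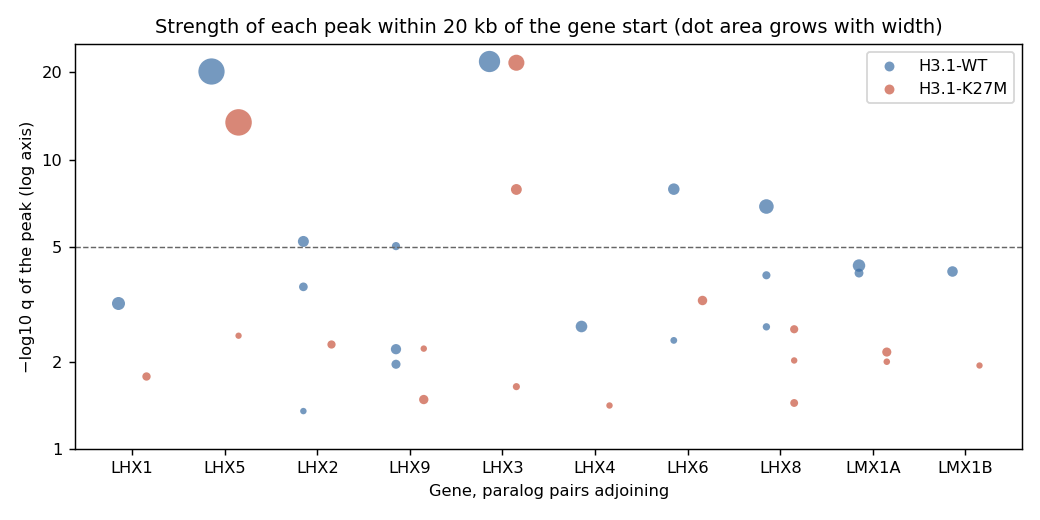
−log10 q (y axis, log axis) of each peak within 20 kb of the 10 gene starts, 1 dot per peak in the H3.1-WT and H3.1-K27M lists, with dot area growing with peak width and a dashed line at 5. Above the line lie 6 H3.1-WT peaks, 1 at each of 6 genes, and 3 H3.1-K27M peaks at LHX5 and LHX3.

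LHX6 and LHX8 pattern neurons of the ventral forebrain, LHX6 in cortical interneurons and LHX8 in cholinergic neurons and also in oocytes. LHX6 (9q33.2) had an H3.1-WT peak at chr9:124989494-124993179 of 3686 bases across the start, with a fold enrichment of 6.04 and a −log10 q of 7.90. Its single H3.1-K27M peak at chr9:124990075-124992168 had 2094 bases, a fold enrichment of 4.16 and a −log10 q of 3.26. That peak lay within the H3.1-WT peak, with shorter flanks on both sides and still across the given start, and covered 56.8% of it. Outside LHX3 and LHX5, these were the highest −log10 q values of the family in both lists. A further H3.1-WT peak of 509 bases, 14.1 kb downstream, had no H3.1-K27M counterpart.

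At LHX8 (1p31.1) the main H3.1-WT peak at chr1:75598565-75605209 spanned 6645 bases, from 1.4 kb upstream to 5.2 kb downstream, with a fold enrichment of 5.31 and a −log10 q of 6.88. In H3.1-K27M the window held 3 short peaks, all downstream of the start. The widest of them, chr1:75601095-75602351, had 1257 bases, a fold enrichment of 4.09 and a −log10 q of 2.59, and the others had 321 and 1090 bases. These covered 27.9% of the main H3.1-WT peak, and 2 smaller H3.1-WT peaks of 1230 and 791 bases had no counterpart. LHX8 covered 2.07 times as many bases as LHX6 in H3.1-WT and 1.27 times as many in H3.1-K27M, where the order turned with peaks of a −log10 q of at least 2 alone (1578 bases at LHX8 and 2094 at LHX6). At this pair the gene with the wider H3.1-WT coverage had the smaller share of it in H3.1-K27M, 21.4% of its window coverage against 49.9% at LHX6.

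LHX2 and LHX9 act in eye, cortex and limb, and in gonad and diencephalon. LHX2 (9q33.3) had a strong H3.1-WT peak at chr9:126770448-126773702 of 3255 bases, ending 0.3 kb before the given start, with a fold enrichment of 4.46 and a −log10 q of 5.21. No H3.1-K27M peak overlapped it, and this was the only strong H3.1-WT peak of the family without one. The single H3.1-K27M peak at LHX2, chr9:126762217-126763516, lay farther upstream, from 11.8 to 10.5 kb before the start, and had 1300 bases, a fold enrichment of 3.64 and a −log10 q of 2.3. It overlapped a weaker H3.1-WT peak of 1585 bases by 874 bases. At LHX2 the 2 lists thus met at a distal site and not at the start.

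LHX9 (1q31.3) had 3 H3.1-WT peaks, none of them within 1 kb of the given start. RefSeq lists 2 LHX9 starts, and the other was not set against the peaks, so a peak may lie at it. The strong one, chr1:197877313-197878591, had 1279 bases from 4.7 to 3.4 kb upstream, a fold enrichment of 5.15 and a −log10 q of 5.02. The widest, chr1:197884484-197887162, had 2679 bases from 2.5 to 5.2 kb downstream, a fold enrichment of 3.58 and a −log10 q of 2.21. The stronger peak was the less covered in H3.1-K27M. A peak of 326 bases with a −log10 q of 2.22 covered 25.5% of it, whereas a peak of 2001 bases at chr1:197884637-197886637, with a fold enrichment of 3.34 and a −log10 q of 1.48, covered 74.7% of the widest. The remaining H3.1-WT peak, 9.4 to 7.6 kb upstream, had no counterpart, and it lies near the start of C1orf53, which is 9.83 kb upstream of LHX9 in RefSeq. LHX9 covered 1.12 times as many bases as LHX2 in H3.1-WT and 1.79 times as many in H3.1-K27M. With peaks from a −log10 q of 2 upward, LHX2 had the wider coverage in both lists, with 4840 bases against 3958 in H3.1-WT and 1300 against 326 in H3.1-K27M.

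LMX1A and LMX1B act together in midbrain dopamine neurons, LMX1A also in the roof plate and LMX1B also in the dorsal limb and kidney podocytes. LMX1A (1q23.3) had 2 H3.1-WT peaks, 1 on either side of the given start. The wider, chr1:165318604-165323144, had 4541 bases from 1.9 to 6.4 kb downstream, with a fold enrichment of 4.58 and a −log10 q of 4.30. The other had 1706 bases upstream, with a −log10 q of 4.05. In H3.1-K27M the downstream peak alone had a counterpart, chr1:165320773-165322632, with 1860 bases, a fold enrichment of 3.75 and a −log10 q of 2.16, which covered 41.0% of it. A second H3.1-K27M peak of 382 bases lay beyond it, outside any H3.1-WT peak.

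LMX1B (9q33.3) had a single H3.1-WT peak at chr9:129374096-129376997 that ran over the 2902 bases up to the start, with a fold enrichment of 4.30 and a −log10 q of 4.12. The H3.1-K27M peak at chr9:129374558-129374833 had 276 bases within it, a fold enrichment of 3.60 and a −log10 q of 1.95. It covered 9.51% of the H3.1-WT peak. Taken over whole windows, this was the second lowest share of the 10 genes, after LHX4. LMX1A covered 2.15 times as many bases as LMX1B in H3.1-WT and 8.12 times as many in H3.1-K27M. The second ratio again rests on 1 peak with a −log10 q under 2, without which LMX1B had 0 covered bases in H3.1-K27M. The gene of a pair with more covered bases in H3.1-WT also had more in H3.1-K27M in 5 of 5 pairs with all peaks. With peaks of a −log10 q of at least 2 this held in 4 of 5 pairs, LHX6 and LHX8 being the exception. No other pairs of loci were counted, so the shared order is not shown to be particular to paralogs.

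Overlap between the lists was set beside that of all peaks. Of the 18 H3.1-WT peaks, 11 (61.1%, 95% Wilson interval 38.6 to 79.7%) shared at least 1 base with an H3.1-K27M peak, against 36.0% of all H3.1-WT peaks. Of the 17 H3.1-K27M peaks, 15 (88.2%, 65.7 to 96.7%) overlapped an H3.1-WT peak, against 31.6% of all H3.1-K27M peaks. These intervals reflect counting error alone and take peaks as independent, which peaks of 1 gene are not. The overlapped share also rose with strength. Among autosomal H3.1-WT peaks it was 24.5% for 16701 peaks with a −log10 q from 1 to 2. It was 36.5% from 2 to 3, 51.4% from 3 to 5 and 75.5% from 5 to 10. Only 2 of the 18 family peaks were under 2. The 61.1% against 36.0% is thus not matched for strength and shows no excess of the family. The H3.1-K27M comparison was not matched either. Among strong H3.1-WT peaks, 5 of 6 (83.3%, 43.6 to 97.0%) were overlapped, against 83.5% of all 2107 strong peaks; among strong peaks the family was close to the whole list. With a mutual overlap of 50% required, the counts were 5 of 18 and 5 of 17, and the shares 27.8% and 29.4%, against 14.5% of all H3.1-WT peaks and 12.9% of all H3.1-K27M peaks. These shares were likewise not matched for strength.

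Strength in H3.1-WT went along with the share covered in H3.1-K27M across all autosomal peaks. The median share was 0% of bases for 6699 peaks with a −log10 q from 2 to 3, 12.2% for 3594 peaks from 3 to 5, 46.9% for 1314 peaks from 5 to 10, 73.0% for 489 peaks from 10 to 20, and 84.3% for 221 peaks of at least 20. LHX3 at 76.0% and LHX5 at 93.8% both lay within the quartiles of that highest class, 69.1 to 97.7%. LHX6 at 56.8%, LHX8 at 27.9% and LHX9 at 25.5% lay within the quartiles of the class from 5 to 10, which ran from 9.0 to 74.5%, and LHX2 at 0% lay below them. Tiles with a strong H3.1-WT peak held H3.1-K27M peaks in 85.9% of cases and strong ones in 26.2%, and among the 6 genes with such a peak the counts were 6 and 2. In the 788 tiles with an H3.1-WT −log10 q of at least 10, 55.8% held a strong H3.1-K27M peak, and LHX3 and LHX5 both did. Beside LHX3 and LHX5, 10 other autosomal H3.1-WT peaks had a width of at least 15 kb, and their shares ran from 75.4 to 100% with a median of 93.9%. LHX5 lay near that median and LHX3 near the lowest value.

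**Figure D5:**
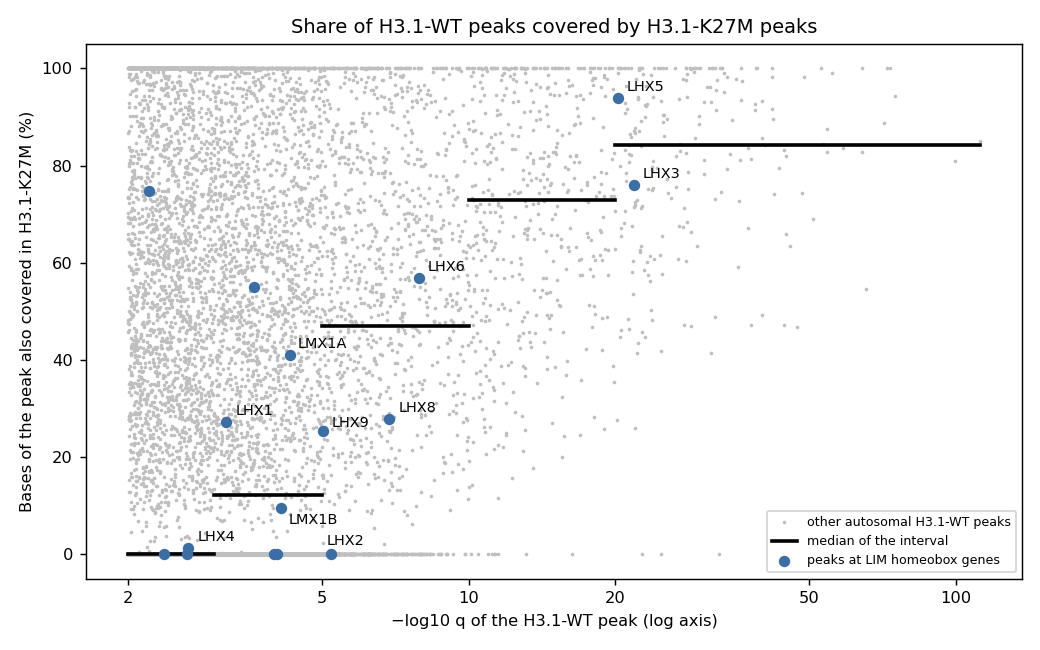
Share of the bases of each H3.1-WT peak also covered by H3.1-K27M peaks (y axis, %) against its −log10 q (x axis, log axis) for autosomal peaks from a −log10 q of 2 upward, with black lines at the median of each interval. Blue points are peaks at LIM homeobox genes, with the strongest of each gene named, and LHX5 and LHX3 lie with the strong, mostly covered peaks at the right while LHX2 lies at 0%.

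Coverage around the starts differed in extent between the lists. In H3.1-WT a peak came within 1 kb of the given start at 9 of the 10 genes, all but LHX9, with 13398 bases covered there. Of autosomal tiles of 2 kb, 3.13% held an H3.1-WT peak. In H3.1-K27M this held at 4 genes, LHX1, LHX3, LHX5 and LHX6, with 5033 bases covered, and 3.1% of such tiles held an H3.1-K27M peak. How many 2 kb tiles held a peak in both lists was not counted. Overlap by the other list was incomplete across all autosomal H3.1-WT peaks too. It was 36.5% in the class from 2 to 3 and 75.5% in that from 5 to 10. The lower number of genes in H3.1-K27M was not matched for strength and is not shown to be particular to this family. Only 1 start per gene was counted. Several genes, LHX9 among them, have further RefSeq starts that were not set against the peaks. The counts of 9 and 4 genes may therefore miss peaks at those starts. In the 1 kb just upstream of the start, at least 500 bases were covered at 8 genes in H3.1-WT and at 3 in H3.1-K27M. No background was computed for these numbers of genes. Of the covered bases, 34400 lay upstream and 47020 downstream in H3.1-WT, and 19098 and 30528 in H3.1-K27M. The start positions are known to 1 kb, so an edge that lies closer than this to a start, as at LHX1, LHX2, LHX3, LHX6, LMX1A and LMX1B, cannot be placed before or after it.

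The other genes of the LIM factor system were counted in the same way: the LIM homeobox genes ISL1 and ISL2, the LIM-only genes LMO1, LMO2, LMO3 and LMO4, and the cofactors LDB1 and LDB2. Of these 8, 6 had an H3.1-WT peak and 3 an H3.1-K27M peak, and 3 had a strong H3.1-WT peak and 0 a strong H3.1-K27M peak. Of autosomal 40 kb tiles, 29.0% held an H3.1-WT peak and 23.0% an H3.1-K27M peak. A strong peak lay in 2.91% and 0.925% of them. The differences between the lists were not tested and are not shown to be particular to these genes. The strong H3.1-WT peaks were at ISL1, with a −log10 q of 6.13, at LMO1 with 9.42 and at LMO3 with 7.45. ISL1 is a factor of motor neurons, heart and pancreas. Covered bases at ISL1 were 13005 and 2733 in H3.1-WT and H3.1-K27M, and at LMO1 6785 and 2236. Fewer covered bases in H3.1-K27M were also seen at most of the 10 family members. The same held in 75.7% of tiles with a strong H3.1-WT peak, so this direction is not a result about these genes. LMO3 went the other way, with 11134 and 20895 covered bases in H3.1-WT and H3.1-K27M, a ratio of 1.88, and 95.8% of its H3.1-WT bases covered. ISL2, LMO4 and LDB1 had peaks in the H3.1-WT list alone, none of them strong. LMO2 and LDB2 had a peak in neither list.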

How the data were processed

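Human HEK293 cells were profiled by CUT&RUN with 4 libraries. Per the submitters' processing notes, cutadapt, Bowtie2 2.3.5.1, Picard, MACS2, deepTools and hg19 were used, with no roles or parameters given. The authors deposited 2 lists of broad peaks, each from 1 EZH2 and 1 HRP library, and peaks were thus called without pooling. Each peak carries the authors' fold enrichment over the caller's background, a ratio, and the authors' −log10 p and −log10 q values. Read depth is unknown, and depth and scaling between libraries move the number, width and strength of peaks.

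Windows of 20 kb to each side of the given starts were intersected with the peaks, positions were taken as 1-based, and 1 shared base counted as overlap. Starts are known to 1 kb. Strands, and the starts of the 8 related genes, came from general knowledge, and the strands equalled those of RefSeq for 8 of 8 matched genes. The background was the 72014 autosomal tiles of 40 kb, where a peak crossing a tile edge is divided, and tiles of 2 kb. No hg19 annotation or genome was used here. All 10 genes are named, with the widest peak of each gene in each list and every peak with a −log10 q of at least 5. Related genes are named where they hold a strong peak, and ISL2, LMO2, LMO4, LDB1 and LDB2 were named after their values were seen. The members and lists were chosen with earlier results of these data known. Chromosome lengths came from GenomeInfoDb 1.38.1, and bands from circlize 0.4.16. Promoter sequences are RefSeq's (GRCh38.p14), matched by symbol. Overlap code was tested on simulated data. Software was Python 3.11.15, matplotlib 3.10.9, pandas 2.3.3, scipy 1.17.1 and numpy 2.4.6. The alternatives were other windows, −log10 q minimums, equal list lengths, joined peaks, stricter overlap, moved starts and genes left out.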

Additional observations from a re-analysis of the deposited data

How the results depend on the processing

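No paired analysis was possible because there is 1 library for each group, and no replicate could be left out. Depth is unknown, and the lists differ in length. Each quantity was recomputed under the alternatives listed for it and not under all: moved starts for the number of genes with a peak alone, joined peaks for covered bases alone, and the reciprocal overlap for overlap shares alone. With LHX3 and LHX5 kept, the ratio of covered bases ran from 0.485 with windows of 5 kb to 0.663 with peaks of a −log10 q of at least 5. The number of genes with an H3.1-K27M peak was 9 with windows of 5 or 10 kb, which leave out the distal LHX2 peak, 9 at equal list lengths and 7 with the −log10 q minimum at 2. With windows of 5 kb the overlapped share of H3.1-K27M peaks was 100%. At a −log10 q of at least 5, 5 genes had fewer covered bases in H3.1-K27M, since the 4 without a strong peak had none in either list. With a minimum of 10, 2 genes had a strong H3.1-WT peak in place of 6, and H3.1-K27M stayed at 2, so the lists no longer differed in this count. A reciprocal overlap of 50% gave shares of 27.8% and 29.4%, against 14.5% and 12.9% of all peaks in the H3.1-WT and H3.1-K27M lists, not matched for strength. Without LHX3 and LHX5, an alternative chosen after seeing the data like the order within pairs at a −log10 q of 2, 0 genes had a strong H3.1-K27M peak and the ratio was 0.301.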
